A study of Mus musculus with 4 samples.

Results

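The vascular endothelial growth factor (VEGF), platelet-derived growth factor (PDGF) and angiopoietin genes are described here as the 10 rows of the deposited gene count table with the symbols Vegfa, Vegfb, Vegfc, Pgf, Pdgfa, Pdgfb, Pdgfra, Pdgfrb, Angpt1 and Angpt2, out of 56748 genes in the table. Bulk RNA sequencing was performed on lungs with 4T1 metastases from female BALB/cJ mice, 4T1 being a mouse triple-negative breast cancer line. The mice were 7 weeks old when luciferase-carrying 4T1 cells (4T1-FLuc) were injected into the tail vein, and all 4 sequenced libraries came from lungs with such metastases. Control mice received saline (2 libraries, saline 1 and saline 2), a vehicle that the sample labels also call PBS control. Treated mice received injected cmLumiOpto and, by mouth, the PARP inhibitor olaparib at 50 mg/kg (2 libraries, cmLumiOpto/PARPi 1 and 2), and per the series record the material was taken after 3 treatment weeks. cmLumiOpto is a luciferase and a light-gated channel sent to mitochondria, carried by an adeno-associated virus in exosomes coated with an antibody to CD276. It was given with ViviRen, the luciferase substrate, and its plasmid name lists cfos ahead of the luciferase. Libraries of cmLumiOpto alone and of olaparib alone were not analysed here, so the contributions of the agents cannot be told apart. The study's methods name lung tissue as the material, while the series record names tumour cells harvested from lung.

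VEGF ligands act on endothelial cells through the receptor tyrosine kinases encoded by Flt1, Kdr and Flt4, and are known for driving the growth of blood and lymphatic vessels. PDGF ligands act on mesenchymal cells through the receptors encoded by Pdgfra, a marker of lung fibroblasts, and Pdgfrb, a marker of pericytes and other mural cells that coat vessels. Angiopoietins bind the endothelial receptor encoded by Tek, with Angpt1 keeping vessels quiescent and Angpt2 counteracting it when vessels are remodelled. In the lung, alveolar epithelium is a known source of VEGF-A and endothelium a known source of PDGF-B.

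The PDGF receptor genes and the ligand gene Pdgfa lay in opposite directions. Pdgfra and Pdgfrb RNA was lower in both treated libraries than in both saline libraries, at 0.609 and 0.623 times the saline mean. In such bulk samples fewer cells of a type and less RNA per cell cannot be told apart. Pdgfa was higher in both treated libraries, at 1.22 times. The other 7 genes had overlapping groups. None of the 10 genes had an adjusted p under 0.05 by edgeR's quasi-likelihood test, and neither did any of the 15167 genes tested (0% called), of which 3221 had an unadjusted p under 0.05. All 10 genes had enough counts to be tested. Over all tested genes 55.2% had groups that did not overlap (27.4% higher and 27.8% lower after treatment), so 3 of 10 is a share below that background. At an unadjusted p under 0.05 there were 2 of the 10 genes, both lower, against 21.2% of all tested genes, 9.21% higher and 12% lower. The median log2 fold change of the 10 genes was 0.13, beside 0.02 over all tested genes.

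Libraries held 15263375 to 16755228 gene counts, and the 10 genes had between 174 and 3564 counts per library. Levels are given as counts per 1000000 library counts (CPM), scaled with edgeR's TMM factors, and 3 counts corresponded to 0.173 to 0.204 CPM. These floors cover counting error only. No source used here says that the libraries of a group came from separate mice, so p-values measure the spread between these samples. Markers of normal lung differed between the libraries. The summed level of 8 alveolar type 2 markers was 1821 and 581 CPM with saline and 8202 and 3009 CPM after treatment. Sftpc, a surfactant gene, was the largest part of that sum in each library. Of the 8 markers 6 had a log2 fold change above 0 and 2, Abca3 and Etv5, were lower in both treated libraries. For 6 airway markers, all above 0, the summed level was 1159 and 85.3 CPM against 5735 and 3007 CPM, most of it Scgb1a1. The summed level of keratins and other tumour and mammary epithelial markers (8 genes, Krt6a at 0 counts in 3 libraries) overlapped. It was 2939 to 3288 CPM in the saline and 2626 to 3752 CPM in the treated libraries. Krt14 was lower in both treated libraries, with 54.1 and 44.0 CPM against 42.9 and 43.6 CPM. The part of tumour cells in this sum was not tested.

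**Figure D1:**
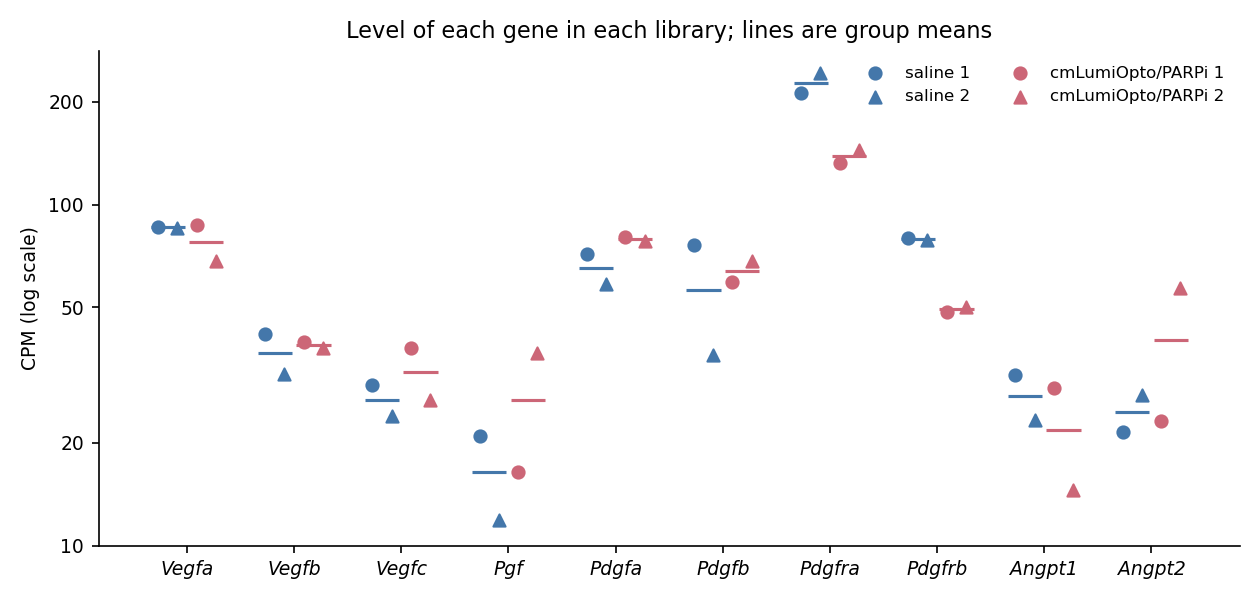
Level in CPM (log axis) of each of the 10 genes in each library, with blue for saline, red for cmLumiOpto/PARPi, circles for replicate 1, triangles for replicate 2 and lines for the group means. The treated points of Pdgfra and Pdgfrb lie below both saline points, and cmLumiOpto/PARPi 2 stands apart in Pgf and Angpt2.

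Promoter sequences of the RefSeq annotation (GRCm38.p6) were at hand for 6 of the 10 genes, Vegfa, Vegfb, Vegfc, Pgf, Pdgfa and Pdgfra. Those of Pdgfra, the receptor that was lower in both treated libraries, and of Vegfa, the most studied angiogenic ligand, are shown, each as the 250 bases before the RefSeq start site, read 5′ to 3′ on the gene's strand. The windows are chr5:75152001-75152250 on the plus strand for Pdgfra and chr17:46032378-46032627 on the minus strand for Vegfa, where RefSeq gives 2 start sites and the one nearer to the annotated gene start was taken. Capitals mark the motifs found on either strand among the GC box GGGCGG, the TATA box TATAAA, the CCAAT box CCAAT and ACGTG, the core of the hypoxia response element.
Pdgfra: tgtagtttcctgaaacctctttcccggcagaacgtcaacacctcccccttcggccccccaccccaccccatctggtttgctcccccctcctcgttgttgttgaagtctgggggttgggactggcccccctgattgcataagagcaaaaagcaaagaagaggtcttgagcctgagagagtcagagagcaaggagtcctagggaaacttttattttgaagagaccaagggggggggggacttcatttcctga
Vegfa: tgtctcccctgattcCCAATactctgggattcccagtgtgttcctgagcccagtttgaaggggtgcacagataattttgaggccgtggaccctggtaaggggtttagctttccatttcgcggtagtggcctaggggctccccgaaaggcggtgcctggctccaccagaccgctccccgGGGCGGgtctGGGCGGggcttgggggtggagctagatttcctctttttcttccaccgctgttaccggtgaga
The Pdgfra window held none of the 4 motifs and had 54.4% G and C, close to the median of 52.4% over all 32851 promoter windows. The Vegfa window held 2 GC boxes and 1 CCAAT box at 59.2% G and C, and no ACGTG, while the window of the other Vegfa start site held 1 ACGTG, 1 GC box and 1 CCAAT box. That other start site is 7206 bases from the annotated gene start and its window lies inside the annotated gene, so its ACGTG is not upstream of the gene. Pdgfa, the ligand gene that was higher, had 2 windows, with start sites 2426 and 3089 bases inside the annotated gene. The window nearer to the gene start held 2 GC boxes at 72.4% and is not shown because part of it is transcribed in another isoform. The farther one held 1 GC box at 66.4%. Of all windows, 32.7% held a GC box, 33.8% a CCAAT box, 12.4% a TATA box and 16.6% ACGTG. A motif match is a description of the letters and does not show binding, and these windows leave out more distant elements.

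Pdgfra, the receptor gene for PDGF-AA and PDGF-CC (chromosome 5 from 75152292 to 75198215, plus strand, ENSMUSG00000029231, coordinates of GRCm38 from GENCODE M21), had 212 and 243 CPM with saline and 132 and 144 CPM in the treated libraries. Both treated libraries lay below both saline libraries, and the gap between the groups was wider than either pair's spread. The means were 227 ± 21.98 CPM (SD, n = 2) and 138 ± 8.52 CPM (SD, n = 2), a log2 fold change of -0.72 with a standard error of 0.14 (adjusted p = 0.138). Pdgfrb, the receptor gene for PDGF-BB (chromosome 18, plus strand, ENSMUSG00000024620), had 79.6 and 78.6 CPM with saline and 48.4 and 50.1 CPM after treatment. Its values were close within each group and apart between the groups. The means were 79.1 ± 0.668 CPM (SD, n = 2) and 49.3 ± 1.20 CPM (SD, n = 2), a log2 fold change of -0.68 with a standard error of 0.13 (adjusted p = 0.138). The value of 0.138 is also the smallest adjusted p of any gene in the comparison. Many genes tie at this value, so it does not rank them. Adamts1, Hspg2 and Thbs2 shared it with smaller unadjusted p by the same test than both receptors, and Esam with a larger one. Both receptors had an adjusted p under 0.05 by DESeq2 (0.00444 for Pdgfra and 0.00895 for Pdgfrb) and by edgeR's likelihood ratio test (0.0181 and 0.0213). DESeq2 called 7.71% of the genes to which it gave an adjusted p, 5.23% lower, and the likelihood ratio test called 5.7%, 3.44% lower.

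Log2 fold changes were lower for longer genes over all tested genes (Spearman's rho = -0.373 across genes, which are not independent replicates). Pdgfra, with 10024 exonic bases in the table, is the longest of the 10 genes, and Pdgfrb has 5478. With an offset for gene length in each library the log2 fold changes were -0.51 for Pdgfra (adjusted p = 0.314) and -0.66 for Pdgfrb (adjusted p = 0.290).

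Markers of the cells that carry these receptors did not move in 1 direction. Of 12 pericyte and smooth muscle markers 9 had a log2 fold change above 0 and 3 below. Their summed level was 299 and 297 CPM with saline and 321 and 276 CPM after treatment, most of it Acta2 and Postn. Acta2, a smooth muscle actin gene, was lower in both treated libraries, with 126 and 149 CPM against 112 and 94.0 CPM, and Postn had overlapping groups. With the length offset 7 of the 12 were above 0 and 5 below. Rgs5, a pericyte regulator of G-protein signalling, had 7.71 and 4.50 CPM against 13.7 and 11.2 CPM, and Higd1b, a marker of lung pericytes, 3.76 and 2.11 CPM against 11.0 and 7.64 CPM. Cspg4, the proteoglycan NG2 of pericytes, had 14.2 and 13.6 CPM against 9.90 and 9.57 CPM. Of 11 fibroblast markers 6 were below 0 and 5 above, with a summed level of 5035 and 3350 CPM with saline and 1819 and 1851 CPM in the treated libraries, most of it in 3 collagen genes. Col1a1, a chain of type I collagen, had 2064 and 1377 CPM against 455 and 572 CPM. Tcf21, a transcription factor of lung fibroblasts, had 3.39 and 0.886 CPM against 21.01 and 5.23 CPM, and Dpt, which encodes the matrix protein dermatopontin, 13.8 and 8.45 CPM against 51.9 and 26.9 CPM. The part of these cell types in the levels of Pdgfra and Pdgfrb was not tested.

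**Figure D2:**
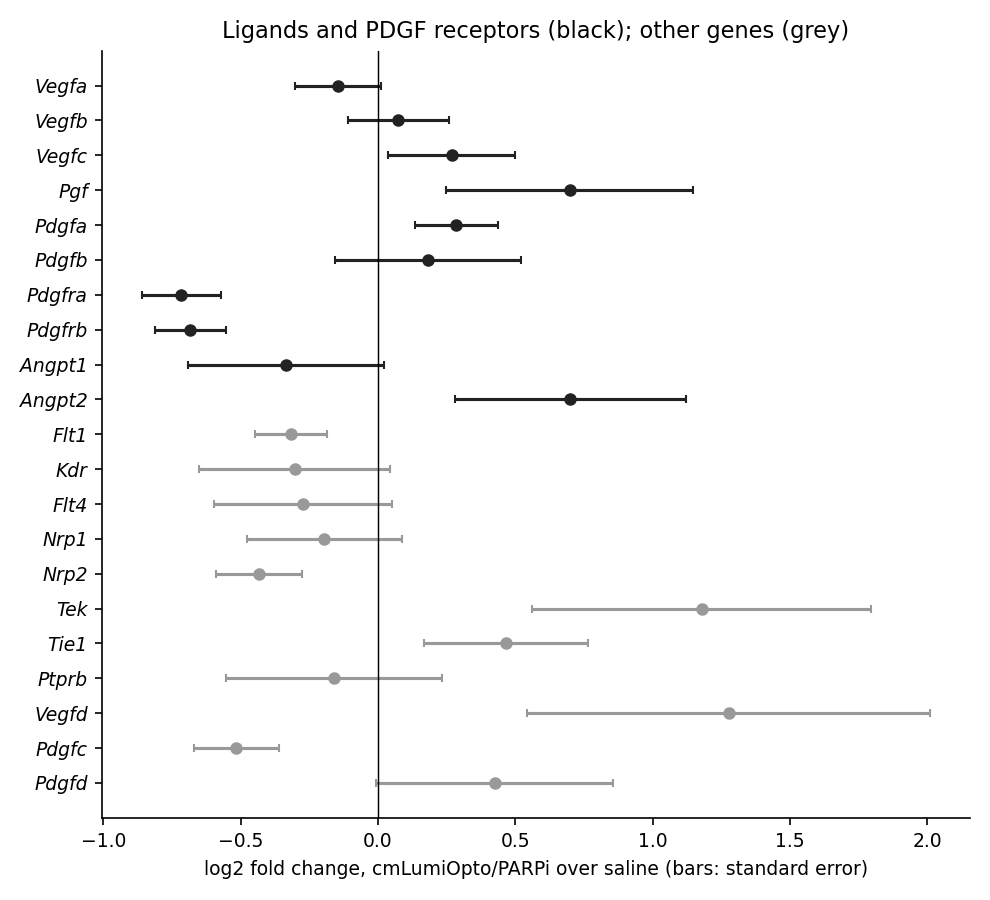
Log2 fold change of cmLumiOpto/PARPi over saline (x axis) with its standard error for the 10 genes (black) and 11 tested receptors, coreceptors, other ligands and a phosphatase of the same pathways (grey), from edgeR with 2 libraries per group. Pdgfra and Pdgfrb have the lowest values among these genes, and Tek and Vegfd are high with wide errors.

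Among the PDGF ligands, Pdgfa, which encodes the chain of PDGF-AA (chromosome 5 from 138976014 to 138997370, minus strand, ENSMUSG00000025856), had 71.7 and 58.4 CPM with saline and 80.4 and 78.3 CPM in the treated libraries. The treated libraries lay above both saline libraries, though saline 1 was nearer to them than to saline 2. The means were 65.1 ± 9.44 CPM (SD, n = 2) and 79.4 ± 1.52 CPM (SD, n = 2), a log2 fold change of 0.29 with a standard error of 0.15 (adjusted p = 0.328). It was 0.12 with the length offset and 0.13 without saline 2. An antisense gene, 6330403L08Rik, shares 813 of the 3119 exonic bases of Pdgfa and had 185 to 209 counts per library, against 857 to 1397 for Pdgfa. Whether counting used the strand is not given in the sources used here, so reads of the pair may not be told apart. Pdgfb, which encodes the chain of PDGF-BB (chromosome 15 from 79995874 to 80014977, minus strand, ENSMUSG00000000489), had 75.9 and 36.3 CPM with saline and 59.2 and 68.1 CPM after treatment. Both treated values fell between the saline ones, which differed 2.09-fold. The log2 fold change was 0.18 (standard error 0.34, adjusted p = 0.784). It was 0.80 without saline 1 and -0.27 without saline 2, so the direction rested on which saline library was kept.

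The other PDGF ligand genes were taken from a list. Pdgfc, per length the most abundant PDGF ligand gene in the saline libraries, had 176 and 172 CPM with saline and 135 and 108 CPM after treatment. Both treated libraries lay below both saline libraries, with a log2 fold change of -0.52 with a standard error of 0.15 (adjusted p = 0.168). PDGF-CC is a ligand of the Pdgfra receptor, so that gene and Pdgfra were lower together while Pdgfa was not. Pdgfd, a ligand gene for the Pdgfrb receptor, was low, at 2.45 and 4.16 CPM against 5.18 and 3.67 CPM, with overlapping groups (adjusted p = 0.601).

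Ratios within a library do not depend on its depth. The log2 ratio of Pdgfa to Pdgfra, in counts per kilobase, was 0.12 and -0.37 with saline and 0.97 and 0.80 in the treated libraries. The treated libraries thus held more ligand RNA per receptor RNA than both saline libraries, by 1.01 on the log2 scale. Fitted with the length offset the difference was 0.63. Pdgfa has fewer exonic bases than Pdgfra, 3119 against 10024. The log2 ratio of Pdgfb to Pdgfrb was 0.33 and -0.72 against 0.69 and 0.84, a difference of 0.96 on the log2 scale, and did not overlap either (0.79 with the length offset). An exact two-sided permutation test of 2 libraries against 2 gave p = 0.33 for both ratios, the smallest value it can give. Both differences follow from the ligand and receptor values given above and are not separate evidence. Pdgfb itself had overlapping groups.

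**Figure D3:**
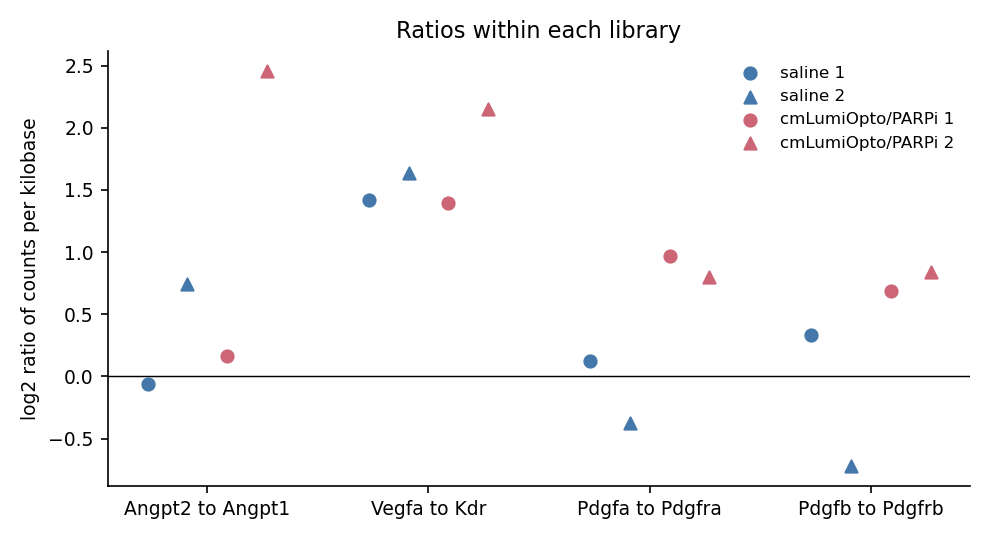
Log2 ratio of counts per kilobase of 4 gene pairs within each library, with saline in blue, cmLumiOpto/PARPi in red, circles for replicate 1 and triangles for replicate 2. Pdgfa to Pdgfra and Pdgfb to Pdgfrb are higher in both treated libraries, whereas Angpt2 to Angpt1 is high in cmLumiOpto/PARPi 2 alone at 2.46.

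Vegfa, which encodes the main angiogenic ligand of the Kdr receptor (chromosome 17 from 46016993 to 46032369, minus strand, ENSMUSG00000023951), had 86.2 and 85.7 CPM with saline and 86.9 and 68.5 CPM in the treated libraries. The saline libraries and cmLumiOpto/PARPi 1 were close together, and cmLumiOpto/PARPi 2 was lower. The means were 85.9 ± 0.406 CPM (SD, n = 2) and 77.7 ± 13.1 CPM (SD, n = 2), a log2 fold change of -0.15 with a standard error of 0.16 (adjusted p = 0.628). Vegfb, a ligand gene of the Flt1 receptor (chromosome 19 from 6982473 to 6987651, minus strand, ENSMUSG00000024962), had 41.8 and 31.8 CPM against 39.4 and 38.0 CPM. Its treated values lay between the saline values (log2 fold change 0.07, standard error 0.18, adjusted p = 0.844). The sign turned to -0.25 with the length offset, Vegfb being the shortest of the 10 genes at 1605 exonic bases. Vegfc, the lymphangiogenic ligand gene of Flt4 (chromosome 8 from 54077606 to 54187096, plus strand, ENSMUSG00000031520), had 29.6 and 24.0 CPM against 37.9 and 26.7 CPM. Its groups overlapped (log2 fold change 0.27, standard error 0.23, adjusted p = 0.534), and the value was 0.02 with the length offset. Vegfd, the other lymphangiogenic ligand gene, had 2.45 and 3.20 CPM with saline and 11.3 and 2.35 CPM after treatment. Its high value stood in cmLumiOpto/PARPi 1 alone (adjusted p = 0.360).

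Pgf, placental growth factor, a ligand gene of Flt1 (chromosome 12 from 85166635 to 85177790, minus strand, ENSMUSG00000004791), had 20.9 and 11.9 CPM with saline and 16.5 and 36.8 CPM in the treated libraries. Its treated mean was 1.62 times the saline mean, with 16.4 ± 6.43 CPM (SD, n = 2) against 26.6 ± 14.4 CPM (SD, n = 2), but cmLumiOpto/PARPi 1 lay between the saline libraries. The log2 fold change was 0.70 (standard error 0.45, adjusted p = 0.407), and -0.02 without cmLumiOpto/PARPi 2.

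Angpt2 (chromosome 8 from 18690263 to 18741562, minus strand, ENSMUSG00000031465) had the same feature. Its level was 21.5 and 27.7 CPM with saline and 23.1 and 56.9 CPM in the treated libraries, so cmLumiOpto/PARPi 2 alone was high. The treated mean was 1.62 times the saline mean, with an SD of 23.8 CPM between the treated libraries (n = 2), and the log2 fold change was 0.70 (standard error 0.42, adjusted p = 0.380). Without cmLumiOpto/PARPi 2 it was -0.11. Angpt2 overlaps the span of Mcph1, a gene of the opposite strand with 300 to 527 counts per library, and shares no exonic base with it. Angpt1 (chromosome 15 from 42424723 to 42676977, minus strand, ENSMUSG00000022309), which encodes the agonist of the Tek receptor, had 31.7 and 23.3 CPM against 29.1 and 14.6 CPM. Here cmLumiOpto/PARPi 2 was the lowest library, and the groups overlapped (log2 fold change -0.33, standard error 0.36, adjusted p = 0.620). Without cmLumiOpto/PARPi 2 the value was 0.06, and without cmLumiOpto/PARPi 1 it was -0.92. The log2 ratio of Angpt2 to Angpt1 in counts per kilobase was -0.06 and 0.75 with saline and 0.17 and 2.46 after treatment. The ratio was high in cmLumiOpto/PARPi 2 alone, and the groups overlapped (exact two-sided permutation p = 0.667).

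The 2 treated libraries therefore differed from each other more than the group means did in Vegfa, Vegfc, Pgf, Pdgfb, Angpt1 and Angpt2. The higher of them was 2.46 times the lower in Angpt2, 2.24 times in Pgf and 2.00 times in Angpt1, where 93.4%, 91.7% and 89.2% of all tested genes had a smaller spread between the treated libraries. For Pdgfrb and Pdgfa it was 1.04 and 1.03 times, and 10.8% and 8.45% of genes had a smaller spread. Among the saline libraries Pdgfb and Pgf had the widest spread of the 10 genes, at 2.09 and 1.77 times, and Vegfa the narrowest, at 1.01 times.

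Endothelial and hypoxia-response genes also differed between the treated libraries. All 10 endothelial markers were higher in cmLumiOpto/PARPi 1 than in cmLumiOpto/PARPi 2, with summed levels of 946 and 512 CPM. That direction was not particular to endothelium. Of the alveolar type 1 markers 8 of 8 shared it, of the airway markers 6 of 6, of the lymphatic markers 5 of 5 and of the alveolar type 2 markers 7 of 8. Of the 7 neutrophil markers 6 went the other way. Of the 15 hypoxia-response genes 13 were higher in cmLumiOpto/PARPi 2. Ndrg1, a hypoxia-induced gene, had 229 CPM in cmLumiOpto/PARPi 1 and 712 CPM in cmLumiOpto/PARPi 2, and Bnip3, a mitophagy receptor gene induced by hypoxia, had 53.8 and 129 CPM. The part of these differences in Pgf, Angpt1 and Angpt2 was not tested. In the saline libraries 11 of the 15 hypoxia-response genes were higher in saline 1. So were 8 of the 10 genes described, with Pgf and Angpt1 among them and not Angpt2. Between the treated libraries the 10 genes described split 5 and 5.

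**Figure D4:**
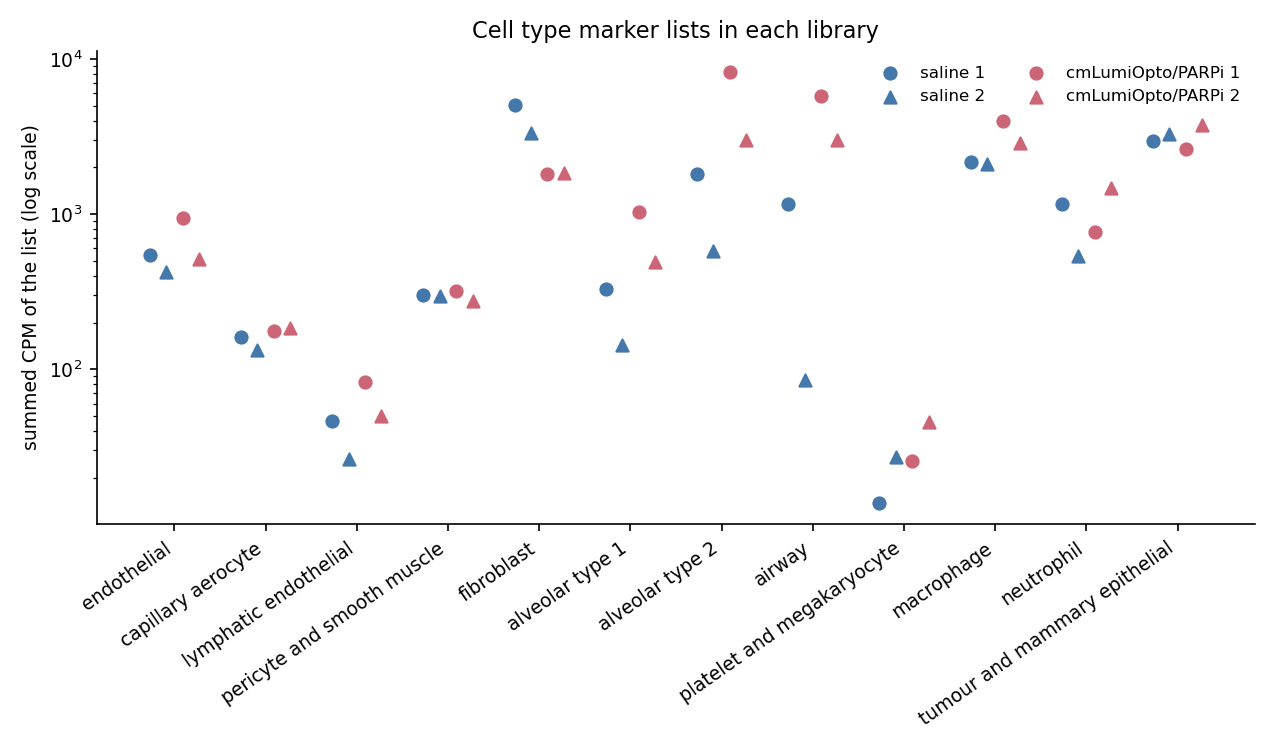
Summed CPM (log axis) of each list of cell type markers in each library, with saline in blue and cmLumiOpto/PARPi in red, circles for replicate 1 and triangles for replicate 2. Airway and alveolar type 2 sums are higher in both treated libraries. Pericyte and smooth muscle sums differ little, from 276 to 321 CPM, although single markers of that list go in both directions.

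All 5 VEGF receptor and coreceptor genes of the list had a log2 fold change below 0, against 48% of all tested genes, and 2 of the 5 had groups that did not overlap, beside 55.2% of all tested genes. With the length offset all 5 were below 0 too, beside 55.4% of all tested genes, but the list's median moved from -0.30 to -0.13. Flt1, the receptor gene for VEGF-A, VEGF-B and PGF, had 106 and 94.0 CPM with saline and 79.5 and 81.0 CPM in the treated libraries. Both treated libraries were lower, with a log2 fold change of -0.32 with a standard error of 0.13 (adjusted p = 0.243). Nrp2, a coreceptor gene for VEGF-C and for semaphorins, had 321 and 357 CPM against 230 and 272 CPM. It too was lower in both treated libraries (log2 fold change -0.43, standard error 0.16, adjusted p = 0.206). With the length offset the log2 fold changes were -0.03 for Flt1 (adjusted p = 0.952), -0.18 for Nrp2, -0.14 for Kdr, -0.13 for Flt4 and -0.01 for Nrp1. Kdr, the main signalling receptor gene for VEGF-A, had 67.9 and 58.2 CPM against 69.5 and 32.6 CPM, with the low value in cmLumiOpto/PARPi 2 alone (adjusted p = 0.647). Flt4, the VEGF-C receptor gene, had 22.5 and 14.8 CPM against 18.9 and 11.9 CPM, and Nrp1, the coreceptor gene for VEGF-A, 89.1 and 65.7 CPM against 84.7 and 50.4 CPM. Both had overlapping groups (adjusted p = 0.657 and 0.721).

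The log2 ratio of Vegfa to Kdr in counts per kilobase was 1.42 and 1.63 with saline and 1.40 and 2.15 in the treated libraries, with overlapping groups (exact two-sided permutation p = 1). The difference of 0.24 in log2 CPM was -0.07 with the length offset. All 10 endothelial markers outside these receptors had a log2 fold change above 0, against 52% of all tested genes, though none passed the adjusted threshold. In 5 of them both treated libraries were higher without overlap, beside 27.4% of all tested genes. Esam, an endothelial adhesion gene, had 43.1 and 36.0 CPM with saline and 97.8 and 64.6 CPM after treatment (adjusted p = 0.138), while Cdh5, which encodes VE-cadherin, had 150 and 128 CPM against 171 and 109 CPM (adjusted p = 0.987). The list's median log2 fold change was 0.83 and its summed level 545 and 424 CPM in the saline libraries against 946 and 512 CPM, so the sums overlapped. With the length offset 9 of the 10 markers were above 0 and 1 below, and the median was 0.69.

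Of the angiopoietin receptor genes, Tek had 16.3 and 8.38 CPM with saline and 43.5 and 12.5 CPM in the treated libraries. The high value stood in cmLumiOpto/PARPi 1 alone (log2 fold change 1.18, standard error 0.62, adjusted p = 0.323). Tie1, the coreceptor gene of Tek, had 42.8 and 37.2 CPM against 71.7 and 38.8 CPM, and its lower treated value fell between the saline values (adjusted p = 0.405). Ptprb, the endothelial phosphatase gene that limits Tek signalling, had 84.7 and 61.2 CPM against 90.9 and 39.5 CPM (adjusted p = 0.840). All 3 were higher in cmLumiOpto/PARPi 1 than in cmLumiOpto/PARPi 2, as was Angpt1 and not Angpt2. Angpt4, a further angiopoietin ligand gene, had 3 and 1 counts with saline against 5 and 3 after treatment, and was too low to test.

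Among 22 genes of the kinases, adaptors and phosphatases that such receptors share, 18 had a log2 fold change below 0 and 4 above, and none passed the adjusted threshold. In 17 of the 22 both treated libraries lay below both saline libraries, beside 27.8% of all tested genes, and the list's median log2 fold change was -0.38 (-0.30 with the length offset, where 20 of the 22 were below 0). Prkca, a protein kinase C gene, had 82.2 and 86.3 CPM against 54.1 and 61.1 CPM (adjusted p = 0.143). Plcg1, the phospholipase gene recruited by VEGF and PDGF receptors, had 101 and 103 CPM against 65.4 and 75.9 CPM (adjusted p = 0.145). Src, a tyrosine kinase gene, had 127 and 146 CPM against 78.6 and 100 CPM (adjusted p = 0.158). Genes above 0 were Nck1, Yes1, Mapk3 and Grb2. Nck1, an adaptor gene, had 55.4 and 39.3 CPM against 80.1 and 62.8 CPM (adjusted p = 0.212), and Yes1, a Src-family kinase gene, 45.5 and 40.4 CPM against 60.5 and 50.9 CPM (adjusted p = 0.251). The adaptor gene Grb2 had overlapping groups (log2 fold change 0.04, adjusted p = 0.875).

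VEGF-responsive and tip cell genes were mixed, with 8 of 14 above 0 and 6 below and a median log2 fold change of 0.15. Dll4, the Notch ligand gene of tip cells, had 15.9 and 11.1 CPM with saline and 26.4 and 21.3 CPM after treatment (adjusted p = 0.175). Cxcr4, a chemokine receptor gene that leukocytes also express, had 21.6 and 11.5 CPM against 35.6 and 30.6 CPM (adjusted p = 0.178), and Esm1, the tip cell proteoglycan gene, 5.52 and 10.7 CPM against 10.9 and 14.98 CPM (adjusted p = 0.353). In the other direction, Adamts1, which encodes a secreted protease of the extracellular matrix, had 78.8 and 84.8 CPM against 37.8 and 33.7 CPM (log2 fold change -1.19, standard error 0.14, adjusted p = 0.138). Unc5b, a netrin receptor gene, had 233 and 200 CPM against 128 and 163 CPM (adjusted p = 0.171), and Nid2, a basement membrane gene, 31.0 and 30.9 CPM against 13.0 and 21.1 CPM (adjusted p = 0.172).

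Of 15 hypoxia-response genes, the class to which Vegfa belongs, 3 had groups that did not overlap, beside 55.2% of all tested genes, and none passed the adjusted threshold. Vegfa and the other 12 had overlapping groups. Of the 15 genes 8 were below 0, and 12 with the length offset. Hif1a, which encodes the oxygen-regulated transcription factor subunit, had 225 and 301 CPM with saline and 167 and 193 CPM in the treated libraries (adjusted p = 0.196). Kdm3a and Pdk1, a histone demethylase and a pyruvate dehydrogenase kinase gene, were lower in both treated libraries (adjusted p = 0.198 and 0.353). Epas1, the hypoxia-inducible factor gene of endothelium, had 112 and 55.0 CPM against 306 and 83.5 CPM (adjusted p = 0.318). Its high value stood in cmLumiOpto/PARPi 1, as for Tek and Vegfd. Ldha and Bnip3 had log2 fold changes of 0.17 and 0.16 with overlapping groups (adjusted p = 0.707 and 0.845).

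Genes of secreted antagonists and matrix proteins that bind angiogenic factors had 8 of 9 tested members below 0, against 48% of all tested genes, with a median log2 fold change of -0.69. In 6 of the 9 both treated libraries were lower without overlap, beside 27.8% of all tested genes, and none passed the adjusted threshold. Hspg2, which encodes the growth factor-binding proteoglycan perlecan, had 699 and 1019 CPM with saline and 314 and 356 CPM after treatment (log2 fold change -1.36, standard error 0.22, adjusted p = 0.138). The antiangiogenic thrombospondin genes Thbs2, with 115 and 121 CPM against 45.3 and 63.8 CPM, and Thbs1, with 642 and 869 CPM against 273 and 472 CPM, were lower in both treated libraries too (adjusted p = 0.138 and 0.166). Ccn1, a matricellular gene, had overlapping groups (log2 fold change 0.04, adjusted p = 0.901).

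Platelets are a store of PDGF and Angpt1 protein. Of 8 platelet and megakaryocyte markers 4 had enough counts to be tested, the defining Gp1bb had 0 counts in all 4 libraries, and the summed level was 13.8 and 27.1 CPM with saline and 25.8 and 46.0 CPM after treatment, most of it Pf4. Of the 5 lymphatic endothelial markers all had a log2 fold change above 0, with 46.3 and 26.4 CPM summed against 83.2 and 50.2 CPM. Only 1 of the 5, Lyve1, was higher in both treated libraries without overlap, beside 27.4% of all tested genes. In saline 2 Lyve1 made up 25.6 CPM of the sum, and Reln, Mmrn1, Prox1 and Ccl21a had 0, 1, 3 and 8 counts. Alveolar type 1 markers, of cells known to make VEGF-A, had 331 and 143 CPM summed against 1026 and 491 CPM, with 8 of 8 above 0, beside the overlapping Vegfa values. The 6 markers of aerocytes, the capillary cells that depend on VEGF-A, had 161 and 132 CPM against 176 and 185 CPM. Most of the sum was Apln in the saline libraries, and without that gene it was 66.2 and 46.1 CPM against 125 and 62.8 CPM, with overlapping groups. Macrophage markers (8 genes) had 2174 and 2098 CPM against 4003 and 2881 CPM, most of it Lyz2, a lysozyme gene of myeloid and alveolar type 2 cells. Without Lyz2 the sum was 481 and 957 CPM against 385 and 441 CPM, lower in both treated libraries, most of it Mrc1 and Chil3. The list had no common direction, with 5 of the 8 markers above 0 and 3 below. Mrc1 had 212 and 396 CPM against 137 and 154 CPM, and Cd68 81.0 and 75.8 CPM against 96.5 and 109 CPM. Neutrophil markers (7 genes) had 1160 and 540 CPM against 761 and 1463 CPM. The part of these cells in the levels of the ligands was not tested.

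Levels of different genes were compared per length, as CPM per kilobase of the table's gene length (RPKM). In the saline libraries Vegfb (22.9), Pdgfra (22.7), Pdgfa (20.9) and Vegfa (20.1 RPKM) were the most abundant, and each overlapped the next. Pdgfrb (14.4), Pdgfb (13.5) and Vegfc (10.9 RPKM) followed below a gap, and Angpt2 (6.67), Pgf (5.65) and Angpt1 (5.29 RPKM) came last after another gap, again each overlapping the next. In the treated libraries Pdgfa (25.4) and Vegfb (24.1 RPKM) led, Pdgfa above Vegfb and Vegfb above Vegfa (18.1 RPKM) without overlap. Pdgfra had 13.8 RPKM, between Pdgfb (15.3) and Vegfc (13.2 RPKM) and overlapping both. Pdgfrb (8.99 RPKM) stood next to last, overlapping Pgf (9.18 RPKM) and above Angpt1 (4.19 RPKM) without overlap. Angpt1 was thus the lowest gene in both groups, and Pdgfra was at rank 2 with saline and rank 5 after treatment.

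The genes with profiles most like that of Pdgfrb over the 4 libraries, by Euclidean distance between centred log2 CPM values, were Med13 (0.00887), Prrc2a (0.0233) and Zfp414 (0.0298). For Vegfa they were Ints3 (0.0190), Efemp2 (0.0466) and Il6st (0.0467). With only 4 libraries such likeness is common, and 39 genes lay within 0.1 of Pdgfrb and 54 of Vegfa.

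**Figure D5:**
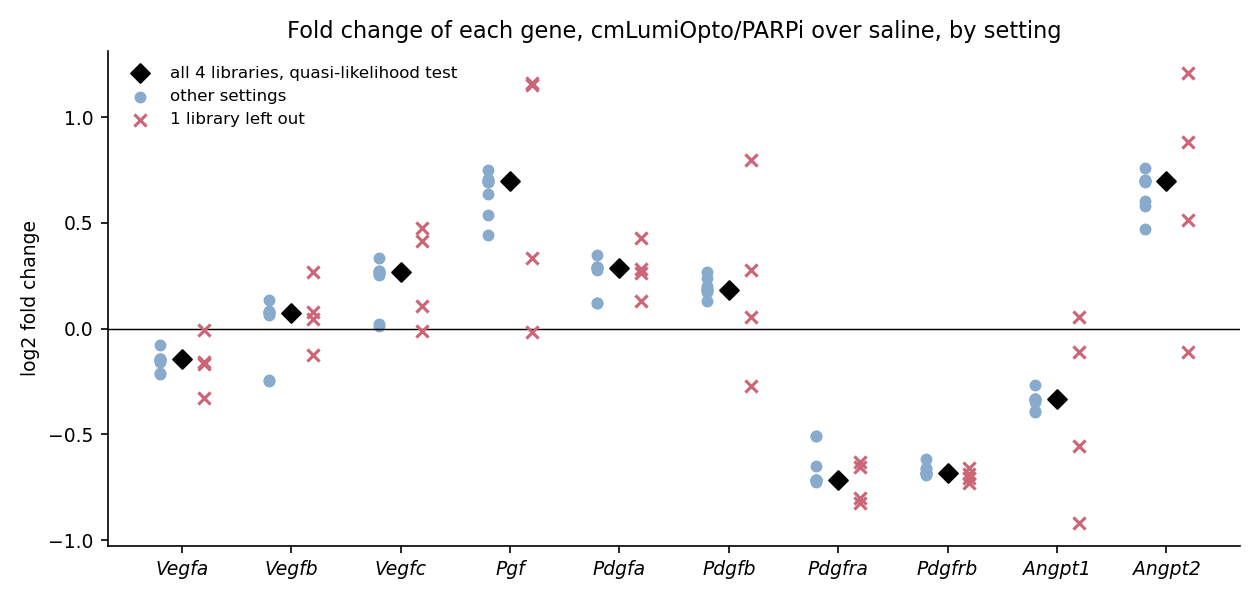
Log2 fold change of cmLumiOpto/PARPi over saline (y axis) of each gene with all 4 libraries (black), under 9 other settings (blue) and with each library left out in turn (red crosses). Pdgfra and Pdgfrb stay below 0 and Pdgfa above 0 in all of them, while leaving out 1 library carries Vegfb, Vegfc, Pgf, Pdgfb, Angpt1 and Angpt2 across 0.

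Over the 14 settings shown in the plot of settings the log2 fold change of Pdgfra ranged from -0.83 to -0.51, that of Pdgfrb from -0.73 to -0.62 and that of Pdgfa from 0.12 to 0.43. Vegfa stayed below 0 as well, between -0.33 and -0.01. Each of the other 6 genes changed sign in at least 1 setting. Pdgfra and Pdgfrb had an adjusted p under 0.05 in 5 of the 14 settings. Besides DESeq2 and the likelihood ratio test these were edgeR's quasi-likelihood test without the filter on low counts (7.86% of genes called, 4.19% lower), with the replicate number as a block (12% called, 7.05% lower), and with block and length offset (8.14% called, 5.15% lower). Both block settings pair libraries by replicate number, although libraries with the same number come from different mice. Angpt2 had an adjusted p under 0.05 in 1 setting, at 0.0271 without the filter, and the other 7 genes in none.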

How the data were processed

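RNA was sequenced from lungs of mice given saline (2 libraries) or cmLumiOpto/PARPi (2 libraries). With HISAT2 the authors aligned the reads, and they deposited whole-number read counts per gene, not normalized. The genome is GRCm38 in the study's methods and mm39 in the submitters' processing notes, and the counting tool is not given in the sources used here. Of 52073 genes found by identifier in GENCODE M21 (GRCm38), only 2.76% had the table's position, so the table's positions are mostly not those of GENCODE M21. Coordinates, gene overlaps and promoter windows given here are nevertheless those of GRCm38, while the counts come from the table. The table's gene length was used for RPKM and the length offset.

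Counts were tested with edgeR 4.0.16 (TMM factors, glmQLFit and glmQLFTest at their defaults, genes kept by filterByExpr at a minimum count of 10, Benjamini-Hochberg adjustment over 15167 genes, threshold 0.05). CPM used the TMM factors, and log2 CPM a prior count of 2. The standard error is the log2 fold change divided by the square root of F. Ratios were tested by exact permutation. The methods were tested on simulated data. The 2 libraries of each group were distinct (chi-square per degree of freedom 25.4 for saline and 45.4 for treated) and were counted separately.

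Named were the 10 genes, their receptors and other ligands, and of each further list up to 3 genes in each direction with the smallest p. Other genes named, markers among them, were picked after their values were seen. The 10 genes and the lists were chosen with earlier results of these data known. Alternatives were DESeq2 1.42.0, the likelihood ratio test, other normalizations, no filter (at least 1 count), quasi-likelihood without the legacy option, a loess length offset (span 0.5), the replicate block and leaving out each library.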

Additional observations from a re-analysis of the deposited data

How the results depend on the processing

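Past the threshold of 0.05 were 0 genes, and 0 of the 10 genes described, with all 4 libraries and edgeR's quasi-likelihood test, where 3221 genes had an unadjusted p under 0.05. The counts were also 0 with DESeq2 size factors, library totals alone, the length offset and the fit without the legacy option. They were 2000 genes and 3 of the 10 without the filter, 1011 and 2 with DESeq2, and 865 and 2 with the likelihood ratio test. Without each library in turn they ranged from 0 to 31 genes (31 without saline 1, 9 without saline 2, 2 without cmLumiOpto/PARPi 1), and 0 of the 10. The cause was not tested. Libraries with the same replicate number were treated differently and so come from different mice, although their deviations correlated (Spearman's rho = 0.298 across genes). The replicate block gave 1822 genes and 2 of the 10, and 1234 and 2 with the block and the length offset. These were Pdgfra (adjusted p = 0.0186 with the block and 0.0420 with both) and Pdgfrb (0.0235 and 0.0268). Ratios per kilobase differ from those in CPM only by a constant, so that alternative could not move the differences. With the length offset, an alternative added after seeing the data like the lists under it and the marker sums without Lyz2 or Apln, the Pdgfa to Pdgfra difference was 0.63 in place of 1.01, and that of Vegfa to Kdr -0.07 in place of 0.24.

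Of 559 values of 43 named genes under 13 alternatives, 466 kept direction and side of the threshold, 61 kept direction and came under it, and 32 changed sign. With the length offset log2 fold changes of opposite sign were -0.25 for Vegfb, 0.10 for Ptprb, -0.15 for Grb2, -0.075 for Bnip3 and -0.26 for Ccn1, and with the block as well -0.24, 0.024, -0.15, -0.22 and -0.24, with -4.90e-04 for Ldha. Leaving out 1 library turned the sign of 17 genes. They ranged from -0.12 to 0.27 in Vegfb, -0.0092 to 0.48 in Vegfc, -0.018 to 1.16 in Pgf, -0.27 to 0.80 in Pdgfb, -0.92 to 0.057 in Angpt1, -0.11 to 1.21 in Angpt2, -0.95 to 0.12 in Kdr, -0.65 to 0.046 in Flt4, -0.62 to 0.11 in Nrp1, -0.046 to 0.82 in Tie1, -0.89 to 0.30 in Ptprb, -0.27 to 1.98 in Vegfd, -0.0047 to 1.85 in Epas1, -0.16 to 0.43 in Ldha, -0.63 to 0.66 in Bnip3, -0.030 to 0.090 in Grb2 and -0.11 to 0.18 in Ccn1. With 2 libraries per group, and 1 in a group when a library is left out, the lone library is assumed to vary like the others.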
